A study of Mus musculus with 2 samples.

Results

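The genes described here are 42 genes of meningeal and neural crest mesenchyme, taken by symbol out of 43346 annotated genes, with collagens left out. They were chosen with earlier results of these data known, so shares set beside those of all genes are descriptions only. All 42 were found in the gene tables. They comprise 18 transcription factors and 24 genes for matrix proteins, secreted factors, a receptor, a transporter, enzymes and contractile proteins. RNA came from the midbrain of healthy B6NCrl mouse embryos aged 12.5 days, and the labels name no treatment, transgene or mutation. The 2 libraries form a single group, pooled from 120 embryos of both sexes in replicate 1 and from 88 in replicate 2, so the study compares no conditions. Tissue was dissected and the labels give no sorting of cells. Otx2, a factor of forebrain and midbrain, was at 146.6 and 141.8 TPM, a level scaled to transcript length and library total, and En1, of midbrain and anterior hindbrain, was at 5.9 and 8.49 TPM. Hoxb4, of the caudal hindbrain, was listed at 0 in both libraries.

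The meninges are the connective tissue layers that wrap the brain. Around the forebrain they derive mostly from the neural crest, a migratory population that leaves the dorsal neural tube, and around the caudal brain from mesoderm. Such mesenchyme is known for Twist, Prrx, Alx and Foxc transcription factors and for a matrix rich in small proteoglycans, and it secretes signals that position the neurons beneath it. Several genes of the list are not exclusive to it: Foxp1, Zeb1 and Zeb2 are also known in neural cells, and Acta2, Tagln and Vtn in the mural cells of vessels.

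Scaling to length in TPM allows genes to be compared within a library. Estimated counts on genes came to 28212923 in replicate 1 and 36082643 in replicate 2. Differences between the libraries are ratios of scaled counts, replicate 2 over replicate 1, each with a 95% exact binomial interval. These intervals cover counting error only, and reads without molecular identifiers are not independent molecules. Each pool is 1 library, so a ratio compares 2 libraries, has no replicate check and carries no test. Intervals deposited with the TPM values are also used, and their level is not given in the sources used here. They need not hold the TPM itself: Lum in replicate 2 was at 148.94 TPM with an upper end of 148.66. A gene was counted as past the fold at a ratio of at least 1.5 in either direction and a mean of at least 1 TPM.

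Sequences before the start sites of 3 genes are shown: a contractile gene, a repressor and a matrix gene. The matrix gene has the highest ratio between the libraries among the matrix genes of the 42. Each sequence has 1 match to the letters searched. RefSeq promoter windows (GRCm38.p6, the assembly also called mm10) were at hand for 25 of the 42 genes. Myl9, a myosin light chain of contractile cells, carries the CArG box, the letters to which serum response factor is known to bind in smooth muscle genes. Snai1 carries CACCTG, the reverse complement of CAGGTG, the letters recognised by the Snail and Zeb families, to which it belongs itself. Postn, a matrix protein, carries TATAAA. Capitals mark these letters, and each sequence runs 5′ to 3′ on the gene's strand. It ends before the RefSeq start of its window or the gene's start in GENCODE M21, whichever comes first. Postn has another RefSeq window upstream, at chr3:54359017-54359316, so its sequence lies after an earlier RefSeq start.
Myl9, chr2:156775214-156775419, plus strand: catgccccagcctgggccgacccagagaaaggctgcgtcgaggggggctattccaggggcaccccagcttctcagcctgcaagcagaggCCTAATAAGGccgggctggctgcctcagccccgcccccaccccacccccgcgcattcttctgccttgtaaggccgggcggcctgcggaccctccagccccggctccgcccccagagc
Snai1, chr2:167537945-167538194, plus strand: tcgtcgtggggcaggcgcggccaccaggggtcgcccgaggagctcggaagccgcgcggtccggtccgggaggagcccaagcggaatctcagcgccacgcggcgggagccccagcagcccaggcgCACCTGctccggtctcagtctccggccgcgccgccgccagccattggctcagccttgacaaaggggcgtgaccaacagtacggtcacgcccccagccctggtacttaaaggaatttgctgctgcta
Postn, chr3:54360857-54361106, plus strand: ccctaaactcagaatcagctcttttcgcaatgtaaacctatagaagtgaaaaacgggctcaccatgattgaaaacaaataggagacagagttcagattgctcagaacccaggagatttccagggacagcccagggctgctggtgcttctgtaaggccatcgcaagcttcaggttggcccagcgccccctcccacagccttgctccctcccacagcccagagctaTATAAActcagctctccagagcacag

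The 25 genes have 33 windows of 300 bases, which were searched on both strands. The CArG box stood in 1 of the 33 windows, that of Myl9, and in 1.63% of all 32851 windows. CAGGTG stood in 6 of the 33, belonging to Foxp1, Myl9, Snai1, Sparc, Timp3 and Vtn, and in 20.2% of all windows. The looser E-box letters CANNTG, which include CAGGTG, stood in 19 of the 33 and in 72.3% of all windows. TATAAA stood in 4 of the 33, belonging to Ogn, Postn, Twist1 and Vtn, and in 13.6% of all windows. In Myl9 the match begins 161 bases before the RefSeq start of the window shown, in Snai1 126 and in Postn 26 bases before it. These are matches of letters and say nothing of binding.

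Mesenchyme genes were detected almost throughout. Of the 42 genes, 41 reached 1 TPM in both libraries, against 60.6% of protein-coding genes and 34.4% of all annotated genes. The exception was Tbx2, and all 42 are protein-coding. Their median was 14.4 TPM in replicate 1 and 20.5 TPM in replicate 2, and together they held 0.244% and 0.306% of all gene counts. Levels spanned from 0.67 TPM (Tbx2) to 383 TPM (Sparc) in replicate 1 and from 0.53 to 499.95 TPM, of the same genes, in replicate 2. Averaged over the libraries, 10 genes reached 50 TPM, 16 lay between 10 and 50 TPM and 15 between 1 and 10 TPM. For comparison, the 8 collagen genes of the connective tissue matrix, such as Col3a1 at 484 ± 120.02 TPM (SD, n = 2), had a median of 35.7 ± 4.87 TPM. The plot of levels by role shows the transcription factors mostly to the left of the matrix genes.

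**Figure D1:**
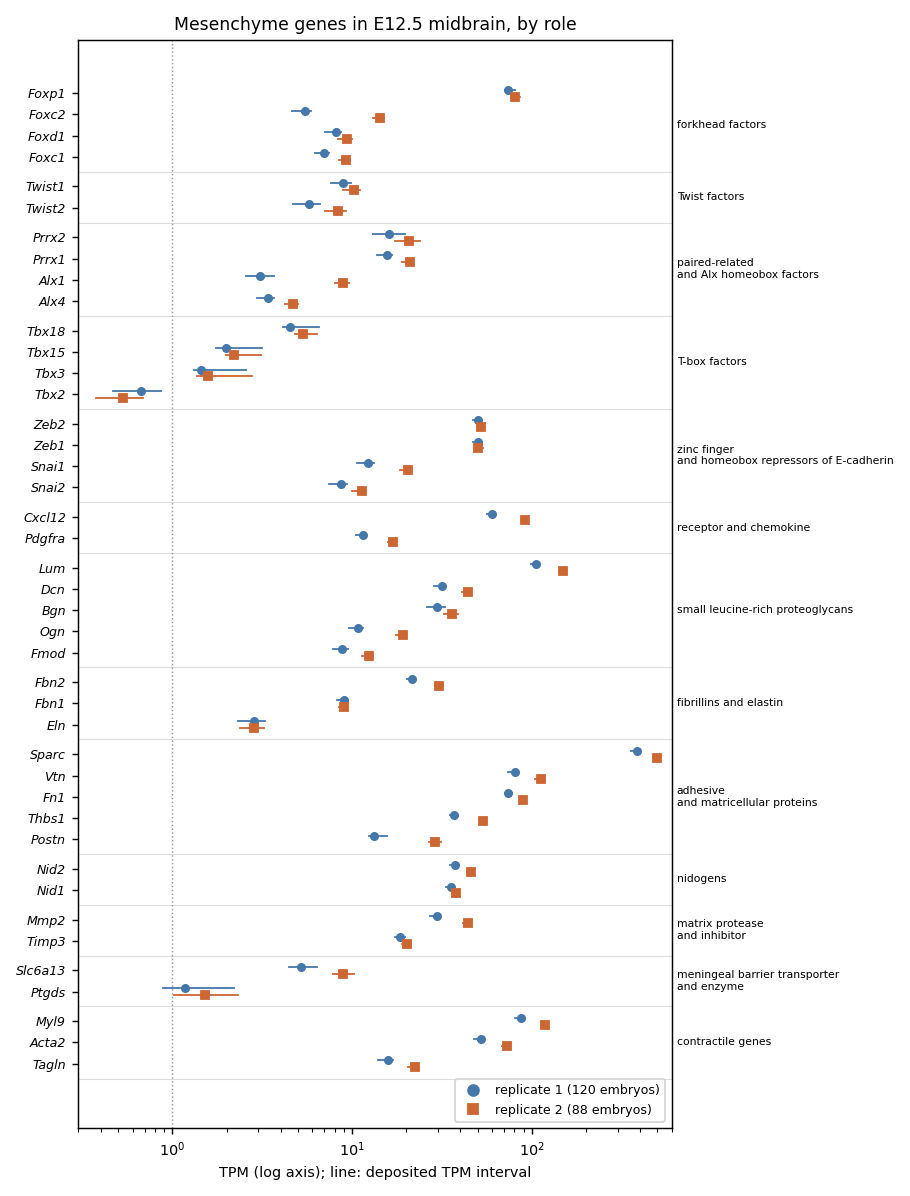
Level of each of the 42 mesenchyme genes in TPM (log axis), grouped by role. Circles are replicate 1 and squares replicate 2, lines are the deposited TPM intervals, which need not hold the TPM, and the dotted line marks 1 TPM. Sparc is highest at 383 and 499.95 TPM, and Tbx2 lies below 1 TPM in both libraries.

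Among forkhead factors, the meningeal regulators Foxc1 and Foxc2 stood at similar mean levels. Foxc1, which is needed for the meninges and the skull above them, stood at 7.0 TPM in replicate 1 and at 9.28 TPM in replicate 2. Foxc2, its close paralogue on chromosome 8 (121116171 to 121118895), was at 5.44 and 14.35 TPM. The deposited intervals of the 2 libraries lay apart for each gene, as they did with replicate 2 higher for 10.6% of all genes at a mean of at least 1 TPM, and the gap was wider for Foxc2. Foxd1, known from the stroma of the kidney and from head mesenchyme, was at 8.10 and 9.41 TPM. Foxp1, a factor also of neurons, was far higher, at 74.1 and 80.1 TPM.

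The Twist and paired-related factors, which act in cranial and limb mesenchyme, lay between 3 and 21 TPM. Twist1 was at 8.93 and 10.2 TPM and Twist2 at 5.77 and 8.32 TPM. Prrx1 was at 15.7 and 20.98 TPM, and its paralogue Prrx2 was at nearly the same level, 16.1 and 20.7 TPM. Alx4 was at 3.4 and 4.71 TPM. Alx1, an aristaless-type homeobox factor of frontonasal mesenchyme (chromosome 10, 102998707 to 103030215), stood at 3.07 TPM in replicate 1 and at 8.85 TPM in replicate 2. Alx1 was thus the lowest of these 6 factors in replicate 1 and ranked above Twist2 and Alx4 in replicate 2.

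T-box factors were the lowest role in the list. Tbx18, a factor of mural cell precursors, was at 4.52 and 5.30 TPM, and Tbx15, a factor of skeletal and skin mesenchyme, was at 1.99 and 2.21 TPM. The repressors Tbx3 and Tbx2 were at 1.45 and 1.57 TPM and at 0.67 and 0.53 TPM. Deposited intervals of the libraries overlapped for all 4.

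The repressors of the E-cadherin gene, known for their part when epithelial cells become migratory, fell into a high and a low pair. Zeb1 was at 50.3 and 50.2 TPM and Zeb2 at 50.2 and 51.9 TPM, so both were nearly equal in the libraries. Snai2, a factor of migrating neural crest, was at 8.62 and 11.3 TPM. Snai1 (chromosome 2, 167538195 to 167542814), whose promoter letters are shown above, was at 12.3 and 20.3 TPM, with intervals that lay apart. The intervals of 10.6% of all genes lay apart with replicate 2 higher.

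Signals and receptors included the chemokine of the meninges. Cxcl12, which the meninges secrete and which guides neurons that bear its receptor, stood at 60.3 TPM in replicate 1 and at 91.9 TPM in replicate 2. Pdgfra, a growth factor receptor of mesenchyme and, later, of oligodendrocyte precursors, was at 11.5 and 16.8 TPM. For both genes replicate 2 was higher and the intervals did not overlap, as for 10.6% of all genes. Of Cxcl12 transcripts, the isoform Cxcl12-202 held 65.3 ± 1.17% (SD, n = 2) and Cxcl12-203 held 26.03 ± 0.170%.

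The small leucine-rich proteoglycans, which bind collagen fibrils, were led by Lum. Lum was at 105.3 and 149 TPM, Dcn at 31.4 and 43.9 TPM and Bgn at 29.6 and 35.9 TPM. Ogn (chromosome 13, 49608046 to 49624501) was at 10.8 and 19.2 TPM and Fmod at 8.78 and 12.4 TPM. All 5 were higher in replicate 2, and intervals lay apart for 4 of them, all but Bgn, against 10.6% of all genes.

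Matrix and adhesive proteins held the highest levels. Sparc, a collagen-binding protein, was at 383 and 499.95 TPM, of which only 53.8% was given to coding transcripts. A short transcript with a retained intron, Sparc-205, held 46.1 ± 0.884% (SD, n = 2) of its TPM, and short transcripts weigh more in TPM than in counts. Vtn, which encodes vitronectin, was at 80.9 and 112 TPM, Fn1, the gene of fibronectin, at 73.5 and 89.4 TPM, and Thbs1, a matricellular protein, at 37.0 and 53.8 TPM. Postn, periostin of fibrous tissue (chromosome 3, 54361109 to 54391037), was lowest of the 5, at 13.2 and 29.0 TPM.

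Fibres and basement membranes were also represented. Fbn2, a microfibril protein of embryonic tissue, was at 21.6 and 30.4 TPM, Fbn1 at 9.00 and 9.01 TPM and elastin (Eln) at 2.86 TPM in both libraries. Nid1 and Nid2, which link laminin to collagen in basement membranes, were at 35.5 and 37.8 TPM and at 37.5 and 46.1 TPM. The protease Mmp2 was at 29.6 and 43.9 TPM, and Timp3, an inhibitor of such proteases, at 18.6 and 20.3 TPM. Intervals of Fbn2, Mmp2, Nid1 and Nid2 lay apart with replicate 2 higher, as for 10.6% of all genes. The ratio of scaled counts of Nid1 was nevertheless only 1.05 (1.00 to 1.09). The intervals of Fbn1, Eln and Timp3 overlapped.

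The genes known from the barrier functions of meninges were low. Slc6a13, a transporter of GABA and taurine (chromosome 6, 121300227 to 121337733), was at 5.17 and 8.89 TPM. Ptgds, a prostaglandin D synthase of the arachnoid layer, was at 1.17 and 1.52 TPM and rested on 17 and 22 counts. Contractile genes were higher: Myl9 was at 86.9 and 119 TPM, the smooth muscle actin Acta2 at 51.9 and 72.8 TPM and Tagln at 15.8 and 22.5 TPM. All 3 contractile genes were higher in replicate 2 with intervals apart, against the same 10.6% of all genes.

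Between the pools, mesenchyme genes were mostly higher in replicate 2. Of the 41 genes at a mean of at least 1 TPM, 6 were past the fold and higher in replicate 2 and 0 were past it and lower, while 3.87% of all 15475 genes at that level were past it and higher, and 3.07% lower. Genes past the fold were Alx1, Foxc2, Postn, Ogn, Snai1 and Slc6a13. The median log2 ratio of the 41 genes was 0.38, against 0.00 over all genes at that level, and 37 of the 41 had a ratio over 1, against 51.0% of all genes. Past the fold in either direction were 6.94% of all genes. Log2 ratios ranged from -0.13 for Tbx3 to 1.53 for Alx1. The transcription factors had a median log2 ratio of 0.29 over 17 genes and the others 0.46 over 24 genes. In bulk tissue, fewer cells of a type and less RNA per cell cannot be told apart.

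**Figure D2:**
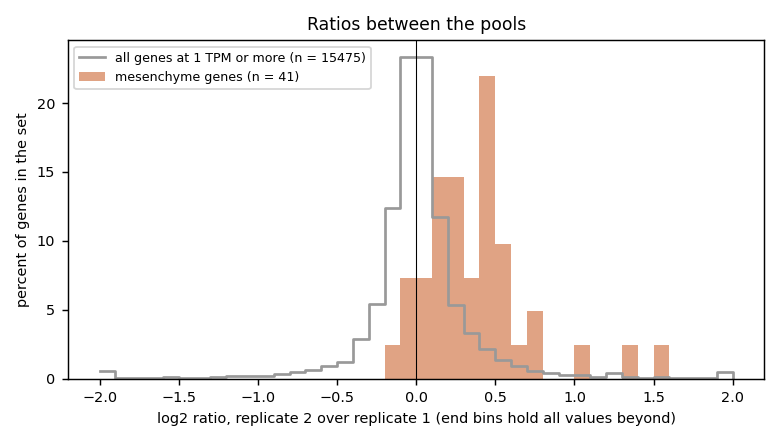
Distribution of log2 ratios of scaled counts, replicate 2 over replicate 1, in bins of 0.1, as percent of genes. The line is all 15475 genes at a mean of at least 1 TPM, centred at 0.00, and bars are the 41 mesenchyme genes, with a median of 0.38.

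Alx1 counts numbered 130 and 484, which gave a ratio of 2.88 (interval 2.38 to 3.54). Foxc2 had 253 and 844 counts, a ratio of 2.59 (2.25 to 2.99). These were the only factors of the list, with Snai1, past the fold. Postn had 701 and 1880 counts, a ratio of 2.08 (1.91 to 2.28), the highest of the genes that encode no factor. Ogn followed at 1.74 (1.56 to 1.94), Snai1 at 1.63 (1.42 to 1.86) and Slc6a13 at 1.53 (1.27 to 1.86). The whole interval lay above 1.5 for Alx1, Foxc2, Postn and Ogn. How many of all genes have such an interval was not counted.

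Low genes vary more between libraries, so the count was also read by level. At a mean of 1 to 10 TPM, 3 of 15 mesenchyme genes were past the fold and higher (Alx1, Foxc2 and Slc6a13), against 8.91% of all genes at that level. Between 10 and 50 TPM, 3 of 16 were (Postn, Ogn and Snai1), against 1.04% of all genes. At 50 TPM or more 0 of 10 were, against 0.218%. The median log2 ratio was 0.20, 0.47 and 0.33 in these 3 ranges, against 0.01, 0.00 and 0.00 over all genes in the same ranges. The higher ratios were therefore not limited to genes of low level.

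A broad group stood just below the fold. Cxcl12 had a ratio of 1.4998 (1.43 to 1.58), marginally short of the threshold, and Mmp2 1.45, Pdgfra 1.44, Thbs1 1.42 and Tagln 1.40 followed. Lum (1.39), Fmod (1.39), Fbn2 (1.38), Acta2 (1.38), Dcn (1.37) and Myl9 (1.34) lay within a narrow range. The 3 contractile genes thus had ratios of 1.34 to 1.40, with intervals that overlap. The plot of ratios by gene shows 32 of 41 intervals above 1, 9 that hold 1 and 0 below it. Of all 15475 genes, 17.7% had an interval wholly above 1 and 17.5% wholly below.

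**Figure D3:**
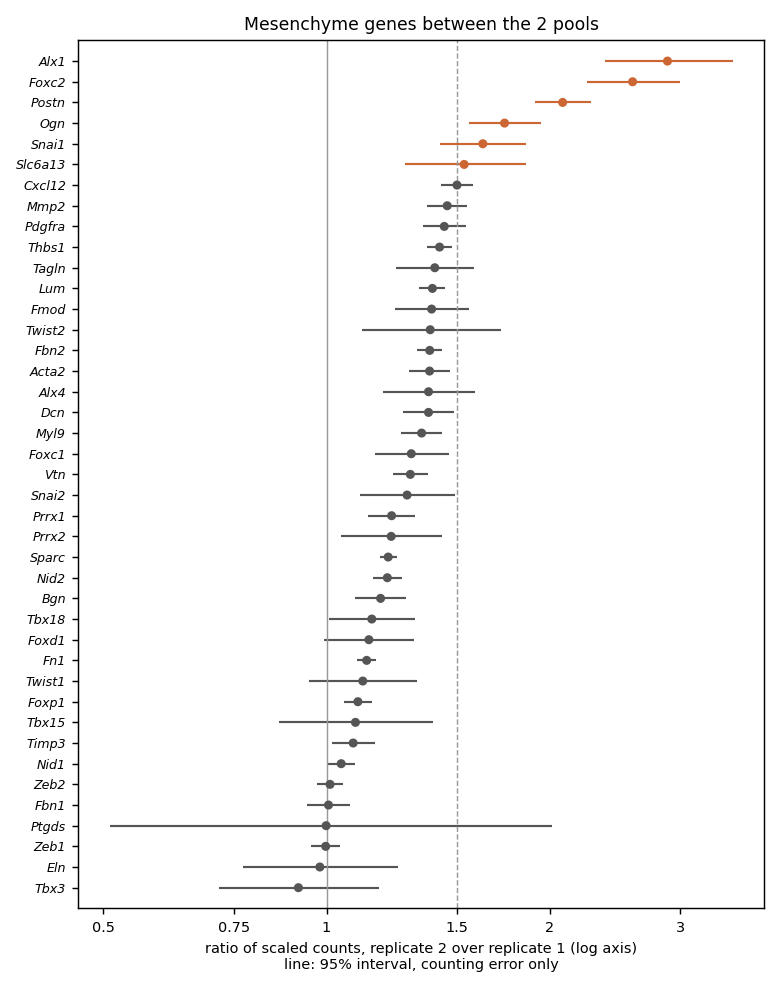
Ratio of scaled counts, replicate 2 over replicate 1 (log axis), for the 41 mesenchyme genes at a mean of at least 1 TPM, with 95% intervals that cover counting error only. Coloured points are the 6 genes at 1.5 (dashed line) or more, from Slc6a13 at 1.53 to Alx1 at 2.88.

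Another group had ratios near 1. Zeb1 had a ratio of 0.997 (0.953 to 1.04), Zeb2 1.01 (0.97 to 1.05), Fbn1 1.01 (0.941 to 1.08), Nid1 1.05 (1.00 to 1.09) and Timp3 1.09 (1.02 to 1.16). The upper end of each of these intervals lay below 1.5. Foxp1 had a ratio of 1.10 (1.05 to 1.15). Eln at 0.98, from 126 and 159 counts, and Tbx3 at 0.916 (0.715 to 1.18) had wider intervals that hold 1 and stay within a 1.5-fold difference in either direction. Ptgds at 0.999 (0.510 to 2.02) had so few counts that a 1.5-fold difference was not detectable at this depth. The ratios of the fibrillins lay apart by counting error alone, without a replicate check: the interval of Fbn2 (1.33 to 1.43) lay above that of Fbn1. Likewise Foxc2 lay above Foxc1 (1.30, 1.16 to 1.46), and Alx1 above Alx4 (1.37, 1.19 to 1.58), by intervals that do not overlap.

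Scaling to spike-in RNAs, which took 4.14% and 3.48% of all counts, moved the median log2 ratio of all genes to 0.27 and that of the mesenchyme genes to 0.65. This scaling shifts all genes by the same amount. With that scaling 22 of the 41 genes were past the fold, all higher in replicate 2, against 10.0% of all genes. Deposited TPM intervals lay apart, with replicate 2 higher, for 27 of 41 genes, against 10.6% of all genes.

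Other genes of connective tissue were also mostly higher in replicate 2. Of 42 further matrix genes, 38 averaged at least 1 TPM. Of these, 13 were past the fold and higher and 1 was past it and lower. Over all genes at that level, 3.87% were past the fold and higher and 3.07% past it and lower. The share past the fold and higher was 34.2% in this matrix list and 14.6% among the mesenchyme genes. Cthrc1, a secreted protein of fibroblasts, was at 50.4 and 98.8 TPM (ratio 1.93), Smoc2 at 9.46 and 18.6 TPM (1.93), Tgfbi at 12.1 and 22.4 TPM (1.81) and Efemp1 at 7.87 and 13.8 TPM (1.79). Aspn, Epyc, Islr, Emilin1, Serpinf1, Pcolce, Mfap5, Loxl1 and Fbln2 were the others, and Prelp was lower, at 2.77 and 1.52 TPM. The interval of Mfap5 held 1. Highest in this list were Serpinh1, the collagen chaperone, at 392 ± 51.5 TPM (SD, n = 2), Mfap2 at 215 ± 30.9 TPM and Fstl1 at 159 ± 29.3 TPM. Their median log2 ratio was 0.33.

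Of 25 further genes known from meninges, 23 were at a mean of at least 1 TPM. Over all genes at that level, 3.87% were past the fold and higher. Of the 23 genes, 4 were past it, all higher in replicate 2. They were Aldh1a2, the enzyme that makes retinoic acid in meninges, at 1.80 and 2.85 TPM, Dkk2, a Wnt pathway modulator, at 11.8 and 18.4 TPM, the ligand Wnt6 at 4.00 and 6.51 TPM, and Mgp at 6.0 and 9.3 TPM. Highest were Igfbp2 at 483 ± 59.1 TPM (SD, n = 2), Crabp1 at 384 ± 66.2 TPM and Crabp2 at 256 ± 29.8 TPM. Of 20 neural crest genes, 10 were at a mean of at least 1 TPM and Msx2 alone was past the fold, at 19.1 and 30.0 TPM. Highest in the crest list were Sox9 at 115 ± 9.36 TPM (SD, n = 2), Tfap2b at 78.25 ± 5.23 TPM and Msx1 at 77.5 ± 8.90 TPM. Sox10 and Foxd3, which mark migrating crest and its glia, stayed under 1 TPM in both libraries. Of 11 further smooth muscle genes at that level, 0 were past the fold, and Tpm1 was highest at 255 ± 68.0 TPM.

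Markers of several other tissues had mostly ratios over 1 as well. Few were past the fold, except among skin, muscle and cartilage markers, with 33.3% of 6 genes against 14.6% of the mesenchyme genes. The part of all these markers in the ratios of the mesenchyme genes was not tested. Of 13 skin, muscle and cartilage markers, 6 were at a mean of at least 1 TPM and all 6 had a ratio over 1. Their 13 levels summed to 136 TPM in replicate 1 and 202 TPM in replicate 2. The cartilage genes Col2a1, at 109.8 and 161 TPM, and Matn4, at 2.28 and 11.2 TPM (ratio 4.63), were past the fold. Of all genes at a mean of at least 1 TPM, 3.87% were past it and higher. The muscle regulators Myod1 and Myog were at 0.03 and 0.05 TPM and at 0.24 and 0.10 TPM, and Matn1 was listed at 0 in replicate 1. Endothelial markers summed to 176 and 206 TPM, with 9 of 10 at a ratio over 1, 0 past the fold and Kdr at 0.91 (0.864 to 0.959). Pericyte markers summed to 67.6 and 73.8 TPM, with 7 of 9 over 1, 0 past the fold and Notch3 at 0.94 (0.897 to 0.985), and Higd1b was listed at 0 in replicate 2. Macrophage markers summed to 115 and 145 TPM, with 10 of 10 over 1 and Trem2 past the fold, and red cell markers had 8 of 8 over 1 and 0 past the fold. Median log2 ratios were 0.54 for skin, muscle and cartilage, 0.23 for endothelial, 0.18 for pericyte, 0.36 for macrophage and 0.17 for red cell markers.

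Neural markers were mixed. Of 10 progenitor markers 4 had a ratio over 1, and of 10 neuron markers 3 had, with median log2 ratios of -0.10 and -0.09 and 0 past the fold. Among choroid plexus markers, Ttr, at 38.7 and 13.8 TPM, and Kcne2, at 2.16 and 0.32 TPM, were past the fold and lower in replicate 2. Aqp1, at 4.00 and 6.52 TPM, was past it and higher. That list also holds Otx2, a factor of forebrain and midbrain, whose log2 ratio of -0.07 is the list's median. The 8 collagen markers all had a ratio over 1, with a median log2 ratio of 0.41 and 0 past the fold.

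**Figure D4:**
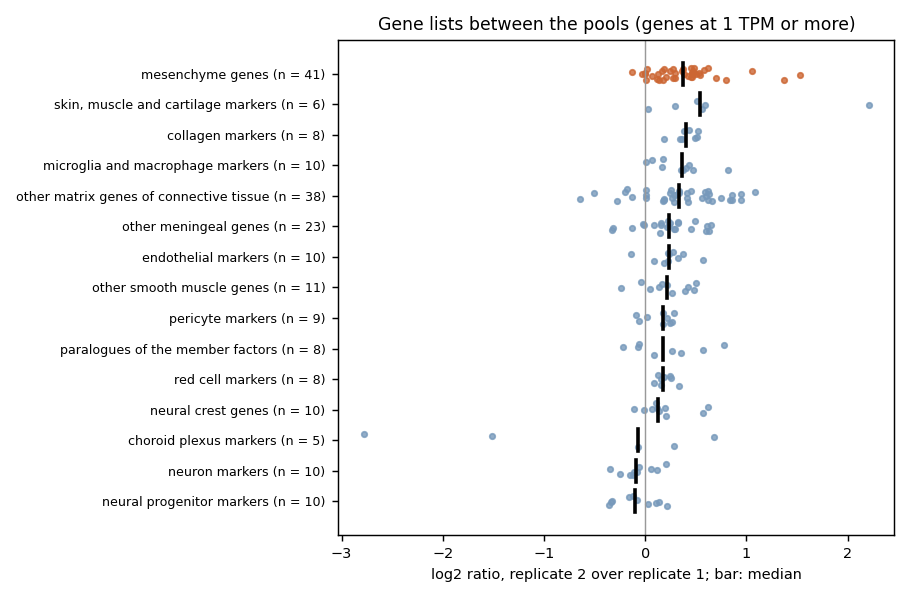
Log2 ratio of each gene at a mean of at least 1 TPM, replicate 2 over replicate 1, for the mesenchyme genes and 14 other gene lists; bars are medians. The median is 0.38 for the mesenchyme genes and 0.54 for 6 skin, muscle and cartilage markers. It is below 0 for choroid plexus, neuron and progenitor markers. The choroid plexus median is the value of Otx2, also a factor of midbrain.

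Neighbouring genes of the same family were compared with the mesenchyme genes beside them. In mm10, Dcn, Lum, Kera and Epyc, all proteoglycan genes, lie in this order within 202.8 kb of chromosome 10 with no other coding gene between them. Dcn and Lum had ratios of 1.37 and 1.39, and Epyc had 1.82 (1.496 to 2.23) at 5.04 and 9.25 TPM. Kera, a proteoglycan of the cornea, rested on 3 and 18 counts. On chromosome 13, Ecm2, Aspn and Omd precede Ogn within 119.7 kb. Aspn had a ratio of 2.12 (1.53 to 3.00) and Ecm2 0.883 (0.637 to 1.23), and the interval of Ecm2 holds 1. Fmod, on chromosome 1, had 1.39 (1.24 to 1.56), while its neighbour Prelp had 0.639 (0.497 to 0.819), with intervals that do not overlap.

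Among forkhead genes, Foxc1 lies beside Foxf2 and Foxq1 on chromosome 13, which had ratios of 0.959 (0.811 to 1.14) and 0.859 (0.706 to 1.05). Foxc1 itself had 1.30 (1.16 to 1.46). Beside Foxc2 on chromosome 8, Foxl1 had 2.86 (1.69 to 5.33), from 17 and 64 counts at 0.37 and 1.10 TPM. The mean of Foxl1 lay below the minimum of 1 TPM used for counting genes past the fold. Foxf1 was at 0.19 and 0.27 TPM. Tbx4 and Tbx5, the neighbours of Tbx2 and Tbx3, stayed under 0.2 TPM.

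**Figure D5:**
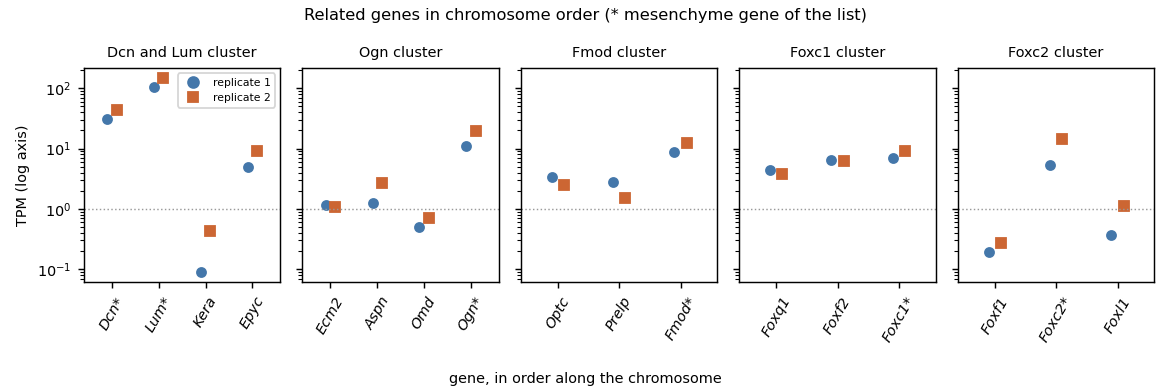
Level in TPM (log axis) of related genes in chromosome order in 5 clusters, circles for replicate 1 and squares for replicate 2; stars mark the mesenchyme genes described here. Lum is highest at 105.3 and 149 TPM, Prelp is lower in replicate 2 beside Fmod, and Foxf1 and Foxl1 lie far below Foxc2.

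Most mesenchyme genes kept the same leading transcript. Annotation gave 16 of the 42 genes a single transcript. Of the 26 others at a mean of at least 1 TPM, 23 had the same most abundant transcript in both libraries, or 88.5%, against 90.4% of all such genes. The exceptions were Postn, Ptgds and Tbx3, of which the latter 2 rested on at most 144 counts. In Postn, Postn-201 was at 5.13 and 8.18 TPM, whereas Postn-203 was at 4.54 and 17.4 TPM. The share of Postn-203 was 34.4% in replicate 1 and 59.98% in replicate 2, and Postn-204 held 16.2% in replicate 1 and 0% in replicate 2. These transcripts have similar lengths, between 3121 and 3202 bases, and the counts were divided among them by estimation.

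Some reads could belong to overlapping genes. Whether counting used the strand is not given in the sources used here, and without strand, reads of overlapping exons cannot be assigned to 1 gene. Nid2 shares 437 exon bases with the opposite-strand gene Rtraf, which was at 192 and 197 TPM. Timp3 shares 1733 with Syn3, at 5.93 and 6.03 TPM, and Tagln shares 108 with Pcsk7, at 16.2 and 15.3 TPM. Twist2 shares 1477 exon bases with the antisense gene Gm29100, at 0.21 and 0.40 TPM. Foxc2 is overlapped on its own strand by the gene model Gm20388, without shared exon bases, which was at 2.94 and 0.22 TPM.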

How the data were processed

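RNA longer than 200 nt (10 ng per library) was sequenced from 2 midbrain pools of 12.5-day embryos, per the labels. Per the file headers, each gene and transcript has an expected count, a read number estimated by the authors' quantification. The deposited TPM values and their intervals are normalised to effective length and library total, and the deposited isoform percent is a transcript's share of its gene. Genes follow annotation M4 of the mm10 assembly, per the deposited readme. Which aligner was used is not given in the sources used here. Names and coordinates came from GENCODE M21, which matched 42462 of 43346 gene identifiers. Ratios and levels leave out 26248 features with short numeric names and, except for scaling, the spike-ins.

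Counts were rounded and scaled by TMM (edgeR 4.0.16, R 4.3.3; factors 0.997 and 1.003). Log2 ratios had 0.5 counts added. Alternatives were DESeq2 1.42.0 size factors, total counts, spike-ins, TPM ratios, other thresholds and pseudocounts. The calculation of ratios and intervals was checked on simulated Poisson counts. These hold counting error only, so the check says nothing of variation between pools. Promoter windows came from RefSeq. Scripts ran in Python 3.11.15.

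The members and gene lists were chosen with earlier results of these data known. All 42 members are described. From each other list the 3 genes with the highest mean TPM and those past the fold could be named, as could overlapping genes; others named, such as genes near 0 and regional markers, and the letters CAGGTG, were chosen after their values were seen.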

Additional observations from a re-analysis of the deposited data

How the results depend on the processing

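The count of 6 genes past the fold was 6 or 7 under DESeq2 size factors, total counts, TPM ratios, other TPM minimums and TMM without globin genes. Cxcl12 was the gene gained, with total counts and TPM ratios. It was 22 with spike-in scaling (10.0% of all genes higher), where the median log2 ratio was 0.65, 22 at a lower log2 threshold of 0.32 (9.83% of all genes higher), 3 at a fold of 2 (Alx1, Foxc2 and Postn; 1.53%) and 27 where deposited TPM intervals lay apart (10.6%), an alternative chosen after seeing the data, as was TMM without globin genes. All of these were higher in replicate 2. Otherwise the median log2 ratio lay between 0.37 and 0.43. Without replicate 1 or 2, the median of log2(TPM + 1) was 4.43 or 3.94, against 4.19, and 41 genes stayed at 1 TPM or more. No paired analysis was possible because the 2 libraries form a single group. Leaving out a library leaves no ratio. The ratio of Ptgds, from 17 and 22 counts, was limited by depth.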
